A study of Mus musculus with 9 samples.

Results

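The genes of the ATF4 integrated stress response examined here are the transcription factors Atf4, Atf5, Atf3 and Ddit3 and the response genes Trib3, Chac1, Asns, Sesn2, Ddit4 and Slc7a11. They are listed by name as known factors and targets of the pathway, with earlier results of these data known, and are 10 of the 50686 genes of the deposited count tables. All 10 were found and all 10 passed the filter on low counts.

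The study measured mRNA in a wt, a Stat5a-/- and a Stat5b-/- line of BCR/ABLp185+ cells to compare what is lost with each of the paralogous transcription factors STAT5A and STAT5B. The lines were grown from bone marrow cells of the C57BL/6N background that carried the p185 form of the BCR/ABL oncogene, a constitutively active tyrosine kinase that activates STAT5. All of them, wt included, carried this oncogene and were cultured in RPMI medium with fetal calf serum, 2-mercaptoethanol and antibiotics, and the labels name no drug treatment or time point. There was 1 cell line per genotype, and its 3 libraries were technical replicates. The p-values below therefore measure only the spread between libraries of single lines, and they compare lines rather than independent lines of each genotype. For the knockout samples, the free-text description in the labels calls the lines wt, against their titles and genotype labels, which were used here.

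The library totals lay between 11948136 and 19016396 counted reads. Stat5a had 11.8 to 13.6 normalized CPM in Stat5a-/- against 36.0 to 48.2 in wt, and Stat5b had 58.5 to 72.3 in Stat5b-/- against 103 to 107 in wt, so both targeted transcripts were lower in their own line without being absent. Normalized CPM are read counts of a gene after scaling each library to a common total by edgeR's TMM method. The lines expressed B-lineage markers, and also T-cell markers at a lower sum. The summed level of 7 B-lineage markers, among them Cd79a and Pax5, lay between 4281 and 4514 normalized CPM in wt, 5904 and 6464 in Stat5a-/- and 5247 and 5990 in Stat5b-/-, above wt in each knockout line, and none of the 7 was at 0. Singly, 5 of the 7 were higher in Stat5a-/-, where 19.7% of all genes were, and 4 in Stat5b-/-, where 24.1% were. Cd79a changed most in Stat5b-/- (1.09 on the log2 scale). Pax5 was at -0.0049 in Stat5a-/- and lower in Stat5b-/- (-0.39, adjusted p = 0.045), where 21.9% of all genes were lower. That call was lost without any 1 wt library, Stat5a-/- replicate 2 or Stat5b-/- replicate 3 (adjusted p up to 0.148). With the replicate number as a block it was lost as well (adjusted p = 0.0779). The 16 T-cell markers also held reads, all 16 in every line, and their sum was 882 to 1201 normalized CPM in wt, 1546 to 1794 in Stat5a-/- and 1990 to 2816 in Stat5b-/-, higher in each knockout line than in wt. Of these 16, 7 were higher in Stat5a-/-, where 19.7% of all genes were, and 15 in Stat5b-/-, where 24.1% were. Myeloid markers (8 genes) summed to 17.3 to 18.7 normalized CPM in wt, 13.6 to 15.1 in Stat5a-/- and 19.6 to 22.1 in Stat5b-/-, with 5 of the 8 too low to be tested and most of the sum from Cd68 and Lyz2. Erythroid markers (5 genes) summed to 11.3 to 13.7 in wt, 11.7 to 14.5 in Stat5a-/- and 2.47 to 3.58 in Stat5b-/-, mostly from Hbb-bt, with 3 of the 5 too low to be tested. The part of these markers in the results below was not tested. In such bulk libraries, fewer cells with a transcript and less of it per cell cannot be told apart.

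The integrated stress response is the common answer of a cell to amino acid shortage, unfolded proteins in the endoplasmic reticulum, heme shortage and double-stranded RNA. The kinases GCN2, PERK, HRI and PKR each phosphorylate the translation initiation factor eIF2, which slows protein synthesis in general while upstream open reading frames in the Atf4 mRNA let ATF4 protein be made. ATF4 then pairs with C/EBP-type factors and switches on genes for amino acid synthesis, amino acid uptake and tRNA charging, and later genes such as Ddit3 that favour cell death. Since ATF4 is largely controlled at translation, the level of its mRNA is not a measure of its protein, and only mRNA was measured here. Dividing leukemic cells draw on the same amino acid genes to supply growth.

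ATF4 and its partners recognise a short composite element, the C/EBP-ATF response element (CARE), whose core was searched here as TGATGNAA on both strands. The windows ran from 250 bases before to 50 bases after each start of the RefSeq annotation of GRCm38.p6. All 10 genes had at least 1 promoter in that table, 11 in all because Atf5 had a pair of starts, and the core was found in 5 of 11 of these promoters and in 5 of the 10 genes. Over all 32851 promoters, 3.97% held it, and over the genes they belong to 4.51% did. The exact form TGATGCAA, which is included in the first search, was found in 3 of the 10 genes and in 1.03% of all genes with a promoter. The stretches around these matches are printed to show which of the 10 genes carry the element next to their start, since it is the sequence through which the named factor acts. Each is written 5′ to 3′ on the strand of its gene, with the match in capitals.
Atf3: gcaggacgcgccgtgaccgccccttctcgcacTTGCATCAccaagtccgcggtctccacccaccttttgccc
Chac1: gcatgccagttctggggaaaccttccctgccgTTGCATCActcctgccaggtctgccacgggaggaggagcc
Slc7a11: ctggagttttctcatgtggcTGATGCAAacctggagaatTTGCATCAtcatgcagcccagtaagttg
Trib3: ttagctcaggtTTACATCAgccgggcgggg
Asns: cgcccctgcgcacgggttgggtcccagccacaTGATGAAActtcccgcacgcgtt

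The first of these lies at chr1:191183404-191183475 on the minus strand, with its match starting 110 bases before the Atf3 start of the RefSeq table. The Chac1 stretch is chr2:119351017-119351088 on the plus strand, and its match starts 193 bases before the start. Slc7a11 carries a facing pair of exact cores within chr3:50443633-50443699 on the minus strand, starting 66 and 47 bases before the start. The Trib3 stretch, chr2:152344028-152344057 on the minus strand, is the only match past a RefSeq start, by 15 bases. The Asns match, within chr6:7693210-7693264 on the minus strand, starts 23 bases before the start. The RefSeq starts differ from the ends of the gene spans in the count tables, and by those spans the Atf3 and Asns matches lie inside the gene and the others outside it. The windows of Atf4, Atf5, Ddit3, Sesn2 and Ddit4 did not hold these letters, which says nothing about elements elsewhere in these genes. The STAT recognition motif TTCNNNGAA, which reads the same on both strands, was present in 1 of the 10 genes, Slc7a11, starting 183 bases before the start, and in 9.55% of all genes with a promoter. A match is a run of letters and not a binding event.

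Most of the 10 genes were lower in each knockout line than in wt, with exceptions. In Stat5a-/- against wt, 6 of the 10 fell (Atf4, Ddit3, Trib3, Chac1, Asns and Sesn2), where 16.1% of all 13852 tested genes fell, and 1 rose (Atf3), where 19.7% of all genes rose. Atf5, Ddit4 and Slc7a11 did not pass. In Stat5b-/- against wt, 7 of the 10 fell (Atf4, Atf5, Ddit3, Trib3, Chac1, Asns and Sesn2), where 21.9% of all genes fell, and Atf3, Ddit4 and Slc7a11 did not pass. A rise was called for 0 of the 10 in this line by edgeR's quasi-likelihood test, for 0 by DESeq2 and for 0 at an unadjusted p under 0.05, where 24.1% of all genes rose by edgeR. The median log2 fold change of the 10 genes was -0.46 in Stat5a-/- and -0.69 in Stat5b-/-, beside medians of 0.01 and 0.02 over all tested genes. Both comparisons use the same wt libraries. A fall of more than 2-fold was reached by 2 of the 10 in each line, Trib3 and Chac1 in Stat5a-/- and Trib3 and Atf5 in Stat5b-/-, where 6.48% and 8.44% of all genes fell by that much. All 3 libraries of the knockout line lay below all 3 of wt for 6 of the 10 in Stat5a-/- (23.7% of all genes) and 7 in Stat5b-/- (26.8%), and all above wt for 1 in Stat5a-/- (25.5%) and for 0 in Stat5b-/- (27.4%). Throughout, a gene was called changed at a Benjamini-Hochberg adjusted p under 0.05 in edgeR's quasi-likelihood test over all tested genes, and a log2 fold change of -1 is a level of 1 in 2.

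**Figure D1:**
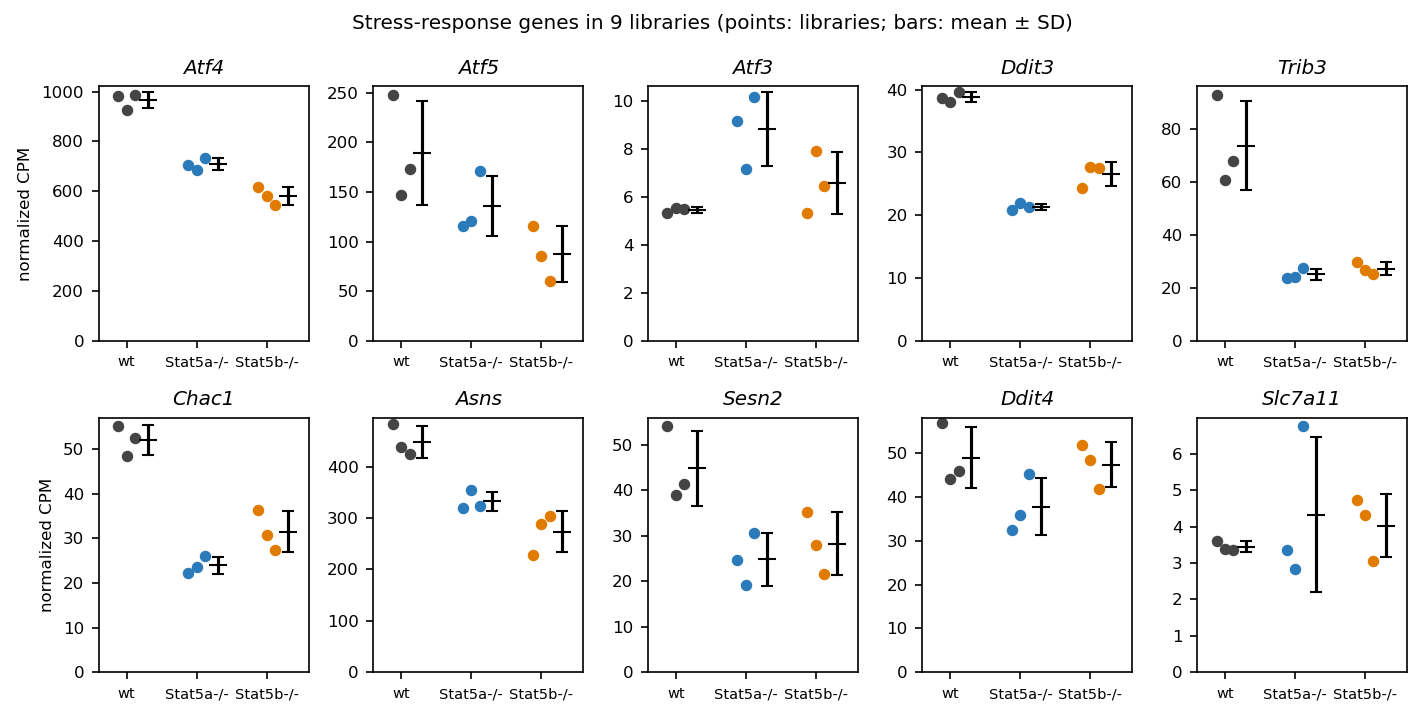
Normalized CPM (vertical axes, linear, from 0, a separate scale for each gene) of the 10 genes in the 9 libraries; each point is a library, and the horizontal mark and bar are the mean and SD of the 3 libraries of a line. Trib3 lies at 60.8 CPM or above in wt and at 30.0 or below in both knockout lines, while the 3 lines overlap for Slc7a11.

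Atf4, which encodes the central transcription factor of the response, was the most abundant of the 10 transcripts. Its level was 984, 928 and 987 normalized CPM in the wt libraries, 706, 685 and 734 in Stat5a-/- and 618, 583 and 545 in Stat5b-/-. Libraries of the 3 lines did not overlap, with wt highest and Stat5b-/- lowest. The log2 fold change was -0.45 (SE 0.09, adjusted p = 0.00192) in Stat5a-/- and -0.73 (SE 0.09, adjusted p = 3.07e-05) in Stat5b-/-. The gene (ENSMUSG00000042406.7) spans chr15:80255184-80257540 on the plus strand of GRCm38. Divided by the length of its exons, its mean level was 560 ± 19.4 CPM per kb in wt, 411 ± 14.3 for Stat5a-/- and 338 ± 20.9 for Stat5b-/- (± SD of 3 libraries), which was the highest of the 10 in each line. Asns came next with 164 ± 11.2 in wt, 121.5 ± 6.89 in Stat5a-/- and 100.1 ± 14.5 in Stat5b-/-, so that Atf4 stood above it by more than the spread between libraries in every line. Slc7a11 was lowest, at 0.248 ± 0.0105 CPM per kb in wt.

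Atf5 encodes a factor related to ATF4 whose translation is regulated in the same way. It was measured at 247, 147 and 174 normalized CPM in wt, 116, 121 and 171 in Stat5a-/- and 116, 85.8 and 60.0 in Stat5b-/-. All Stat5b-/- libraries lay below every wt library, whereas Stat5a-/- replicate 3 reached into the wt range. The fall in Stat5b-/- was by 1.11 on the log2 scale (SE 0.24, adjusted p = 0.00214). In Stat5a-/- the log2 fold change was -0.48 (SE 0.24), and the adjusted p was 0.141. Over the other fits it ranged from -0.71 (without Stat5a-/- replicate 3, adjusted p = 0.0409) to -0.24 (without wt replicate 1, adjusted p = 0.479). Of the exon bases of Atf5 (ENSMUSG00000038539.15, chr7:44812256-44816658, minus strand), 4.11% are shared with Nup62 and Il4i1 on the opposite strand, so that its count is uncertain there.

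Ddit3, which encodes CHOP, the C/EBP-type factor tied to cell death under lasting stress, fell in both lines with little spread between libraries. It had 38.6, 38.0 and 39.6 normalized CPM in wt. There were 20.9, 21.9 and 21.3 in Stat5a-/- and 24.3, 27.7 and 27.5 in Stat5b-/-. The lines did not overlap, and here Stat5a-/- was lowest. Ddit3 changed by -0.86 on the log2 scale in Stat5a-/- (SE 0.10, adjusted p = 2.13e-05) and -0.55 in Stat5b-/- (SE 0.10, adjusted p = 6.92e-04). The gene (ENSMUSG00000025408.15) spans chr10:127290774-127296288 on the plus strand, and 4.73% of its exon bases are shared with Gm4189 and Mars on the opposite strand.

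Atf3, a stress-induced repressor and activator that is switched on by ATF4 and by other pathways, moved the other way. Its level was low, 5.33, 5.56 and 5.49 normalized CPM in wt, 9.16, 7.16 and 10.2 in Stat5a-/- and 5.35, 7.93 and 6.47 in Stat5b-/-. Every Stat5a-/- library lay above every wt library, while the Stat5b-/- libraries overlapped both other lines. It rose in Stat5a-/- by 0.69 on the log2 scale (SE 0.18, adjusted p = 0.00945). In Stat5b-/- it was at 0.27 (SE 0.18, adjusted p = 0.255). These levels rest on 78 to 131 reads a library. The gene (ENSMUSG00000026628.13, chr1:191170296-191218039, minus strand) has an exact CARE core near the RefSeq start used above, which lies inside this span.

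Trib3 encodes a pseudokinase that ATF4 and CHOP induce and that in turn restrains them. It showed the largest fall of the 10 genes in both comparisons with wt. The wt libraries had 93.0, 60.8 and 68.0 normalized CPM. The Stat5a-/- libraries had 23.8, 24.3 and 27.6 and the Stat5b-/- libraries 30.0, 27.0 and 25.1. Both knockout lines lay far below wt and overlapped each other. On the log2 scale this was -1.55 in Stat5a-/- (SE 0.15, adjusted p = 4.15e-06) and -1.43 in Stat5b-/- (SE 0.15, adjusted p = 6.93e-06), which left 34.2% and 37.0% of the mean level of wt. The gene (ENSMUSG00000032715.9) lies at chr2:152337422-152344032 on the minus strand.

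Chac1, an enzyme that breaks down glutathione and a target of ATF4, ATF3 and CHOP, fell as well. It had 55.1, 48.5 and 52.6 normalized CPM in wt, 22.3, 23.7 and 26.0 in Stat5a-/- and 36.5, 30.7 and 27.3 in Stat5b-/-. None of the lines overlapped, in the order wt, Stat5b-/- and Stat5a-/-. Its log2 fold change was -1.12 in Stat5a-/- (SE 0.13, adjusted p = 1.21e-05) and -0.72 in Stat5b-/- (SE 0.12, adjusted p = 3.65e-04). Both Atf3 and Chac1 carry the exact CARE core, and in Stat5a-/- Atf3 rose where Chac1 fell. Chac1 (ENSMUSG00000027313.3) spans chr2:119351229-119354381 on the plus strand.

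Asns, the enzyme that makes asparagine, had 483, 438 and 423 normalized CPM in wt, 319, 354 and 324 in Stat5a-/- and 229, 289 and 303 in Stat5b-/-. There was no overlap between lines, which had the same order as for Atf4. It fell by 0.43 on the log2 scale in Stat5a-/- (SE 0.12, adjusted p = 0.0105) and by 0.71 in Stat5b-/- (SE 0.12, adjusted p = 2.66e-04). The gene (ENSMUSG00000029752.12) lies at chr6:7675169-7693254 on the minus strand.

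Sesn2 encodes sestrin 2, a leucine sensor that restrains mTORC1. Its level was 54.3, 39.0 and 41.3 normalized CPM in wt, 24.7, 19.1 and 30.7 in Stat5a-/- and 35.3, 28.0 and 21.6 in Stat5b-/-. All knockout libraries were below all wt libraries, but the first Stat5b-/- library came close to the second wt library. The log2 fold change was -0.85 in Stat5a-/- (SE 0.20, adjusted p = 0.00479) and -0.66 in Stat5b-/- (SE 0.20, adjusted p = 0.016). The call in Stat5b-/- was lost without wt replicate 1 (-0.50, adjusted p = 0.0704) and without Stat5b-/- replicate 3 (-0.50, adjusted p = 0.0518). The gene (ENSMUSG00000028893.8) lies at chr4:132492032-132510501 on the minus strand.

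Ddit4, also called Redd1, is another inhibitor of mTORC1 and responds to hypoxia, glucocorticoids and ATF4. It had 56.7, 44.0 and 45.8 normalized CPM in wt, 32.4, 35.8 and 45.1 in Stat5a-/- and 51.7, 48.3 and 41.7 in Stat5b-/-. Libraries of the 3 lines overlapped. Its log2 fold change was -0.37 in Stat5a-/- (SE 0.15, adjusted p = 0.0647) and -0.05 in Stat5b-/- (SE 0.14, adjusted p = 0.815). The value in Stat5a-/- was -0.55 without Stat5a-/- replicate 3 (adjusted p = 0.0103) and -0.25 without wt replicate 1 (adjusted p = 0.228). The gene (ENSMUSG00000020108.4) spans chr10:59949669-59951834 on the minus strand.

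Slc7a11, the cystine carrier xCT, takes up the building block of glutathione and is switched on by ATF4 and NRF2. It was the lowest of the 10, at 3.62, 3.38 and 3.35 normalized CPM in wt, 3.36, 2.85 and 6.76 in Stat5a-/- and 4.73, 4.31 and 3.05 in Stat5b-/-. Here the lines overlapped, and Stat5a-/- replicate 3 stood alone above the rest. The log2 fold change was 0.31 (SE 0.29, adjusted p = 0.448) in Stat5a-/- and 0.23 (SE 0.29, adjusted p = 0.541) in Stat5b-/-. Without that library the value was -0.18. With 35 to 75 reads a library, a difference smaller than this spread was not detectable. Slc7a11 (ENSMUSG00000027737.10, chr3:49892526-50443614, minus strand) carries the pair of exact CARE cores printed above.

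**Figure D2:**
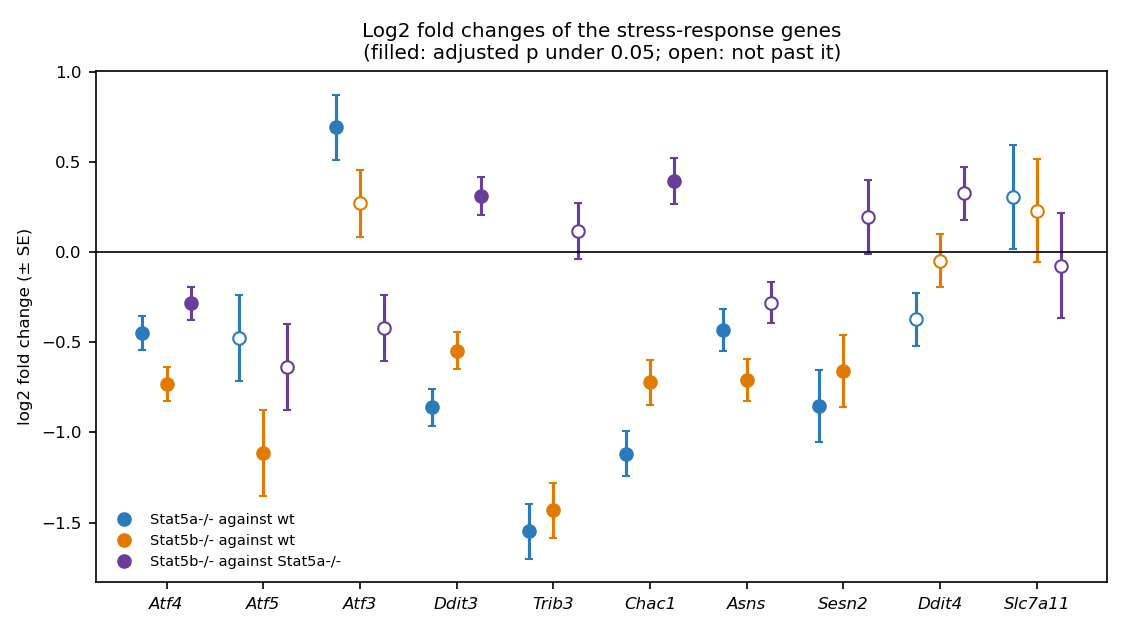
Log2 fold change ± SE (vertical axis) of each of the 10 genes in Stat5a-/- against wt, Stat5b-/- against wt and Stat5b-/- against Stat5a-/-; filled points passed an adjusted p under 0.05 and open points did not. Trib3 lies lowest against wt, at -1.55 and -1.43, and Atf3 is the only filled point above 0 against wt.

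The knockout lines were then compared with each other, to ask whether the lines without STAT5A and without STAT5B held different levels. Between the knockout lines the differences were small, and the 10 genes split in direction. Ddit3 and Chac1, 2 of the 10, were higher in Stat5b-/- than in Stat5a-/-, where 16.3% of all genes were higher, and Atf4, 1 of the 10, was lower, where 17.5% of all genes were lower. The median log2 fold change of the 10 was 0.02, the same as over all genes. The log2 fold change in Stat5b-/- against Stat5a-/- was 0.31 for Ddit3 (SE 0.10, adjusted p = 0.0352), 0.40 for Chac1 (SE 0.13, adjusted p = 0.0292) and -0.28 for Atf4 (SE 0.09, adjusted p = 0.0318). These counts are close to the shares over all genes. All 3 calls were lost with only the compared genotypes in the fit and with the replicate number as a block, and in some fits with 1 library left out, Atf4 in 6 of 9, Ddit3 in 7 of 9 and Chac1 in 4 of 9. Of the other 7 genes, Atf5 was at -0.64 (adjusted p = 0.0578), Atf3 at -0.42 (adjusted p = 0.0939), Ddit4 at 0.33 (adjusted p = 0.107) and Asns at -0.28 (adjusted p = 0.0815), although the Asns levels of the lines did not overlap. Among 18 other fits, Atf5 passed in 7, with DESeq2 among them (-0.65, adjusted p = 0.0348), and Ddit4 in 3. Atf3, Asns, Trib3 and Sesn2 passed in 2 each. Counted by libraries that did not overlap, Stat5b-/- was higher than Stat5a-/- for 2 of the 10, where 22.3% of all genes were, and lower for 2 (Atf4 and Asns), where 22.5% were. Trib3 (0.12, SE 0.16), Sesn2 (0.19, SE 0.20) and Slc7a11 (-0.08, SE 0.29) had the widest error for their size, and a difference of the size seen for Ddit3 lay within 2 SE of each of them.

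The libraries of a line differed in how far reads followed the GC content of genes. The correlation across genes between GC content and the deviation of a library from the mean of its line was highest in wt replicate 1 (0.467), Stat5a-/- replicate 3 (0.525) and Stat5b-/- replicate 1 (0.319), and it was lowest in wt replicate 2 (-0.482), Stat5a-/- replicate 1 (-0.346) and Stat5b-/- replicate 3 (-0.449). Genes are not independent replicates, and these values describe the libraries only. Atf5, Trib3, Sesn2 and Ddit4, whose longest annotated transcripts hold 61.7%, 58.2%, 58.7% and 57.9% G and C, were each highest in wt replicate 1, Stat5a-/- replicate 3 and Stat5b-/- replicate 1 of their lines. So were Chac1 (57.4%) and also Slc7a11, which at 40.7% has the lowest share of the 10. An offset for GC content, which was added after the data were seen, was fitted for every library. With it, 8 of the 10 genes fell in Stat5a-/- against wt, where 22.2% of all genes fell, with Ddit4 (-0.58, adjusted p = 3.74e-05) and Atf5 (-0.62, adjusted p = 8.62e-04) besides the 6 named above, and Atf3 still rose, where 22.0% of all genes rose. In Stat5b-/- against wt, 7 fell, where 26.0% of all genes fell and 28.6% rose. The direct comparison changed more: Chac1 (0.58, adjusted p = 7.38e-05), Ddit4 (0.53, adjusted p = 1.32e-04), Sesn2 (0.40, adjusted p = 0.0172) and Trib3 (0.32, adjusted p = 0.022) were higher in Stat5b-/- than in Stat5a-/-, where 23.7% of all genes were. Atf5 (-0.40, adjusted p = 0.0202) and Asns (-0.29, adjusted p = 0.0283) were lower, where 19.8% of all genes were, and Atf4 (-0.11, adjusted p = 0.251) and Ddit3 (0.25, adjusted p = 0.0519) no longer passed.

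**Figure D3:**
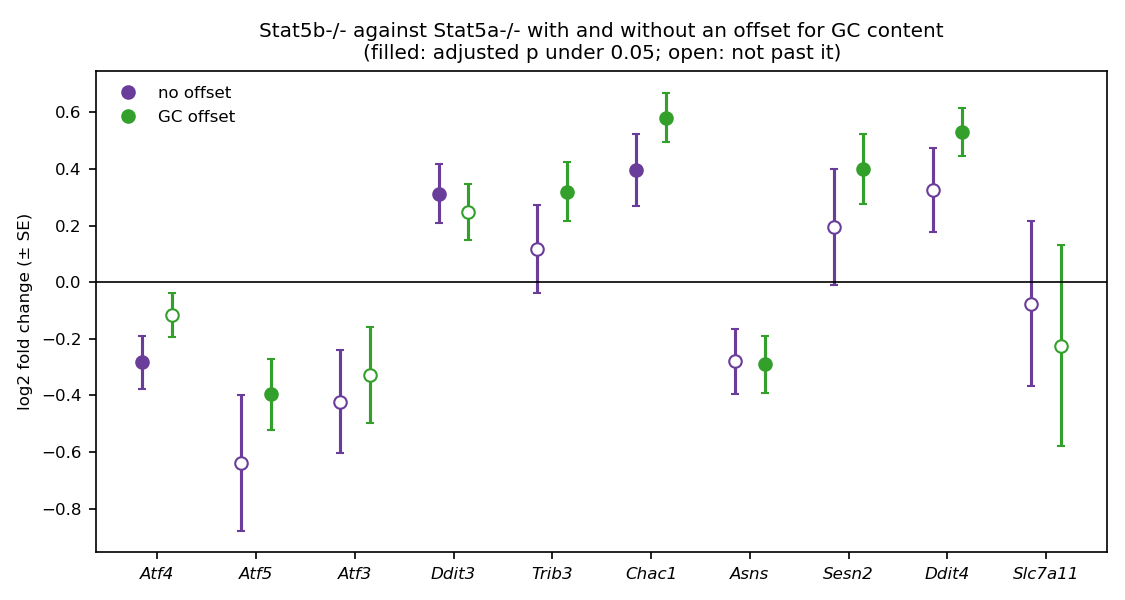
Log2 fold change ± SE (vertical axis) of the 10 genes in Stat5b-/- against Stat5a-/-, without (purple) and with (green) an offset for the GC content of genes; filled points passed an adjusted p under 0.05. Chac1 is filled in both fits, whereas the call for Atf4 (-0.28 without, -0.11 with the offset) is lost and that for Ddit4 (0.33 and 0.53) is gained.

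For the genes that fell against wt, the order of the mean levels restates the direct comparison of the knockout lines, from the same libraries. The mean level of Atf4, Asns and Atf5 was highest in wt, then Stat5a-/-, then Stat5b-/-. For Asns and Atf5 the knockout lines did not differ beyond the threshold in the main edgeR fit. Of the 18 other fits, with and without the offset, Atf5 passed in 7 and Asns in 2. In Stat5b-/- the means were 60.2% of wt for Atf4, 61.1% for Asns and 46.1% for Atf5. For Ddit3, Chac1, Trib3 and Sesn2 the order was wt, Stat5b-/-, Stat5a-/-, and the means of the Stat5a-/- line were 55.1%, 46.1%, 34.2% and 55.3% of wt. For Sesn2 the order of the knockout lines turned without Stat5b-/- replicate 1 (-0.0023 in place of 0.19). Of these, Trib3 and Sesn2 did not differ between the knockout lines beyond the threshold without the offset.

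The genes whose pattern was most like that of Atf4 were sought among 13824 tested genes with a symbol, by the root mean square difference over the 9 libraries between log2 values (CPM plus 0.5) centred on the mean of each gene. They were Tmem248 (0.0538), Kmt5a (0.0603), Egln1 (0.0603), Poldip2 (0.0666) and Hdlbp (0.0704). Of the 10 stress-response genes, Asns came closest to Atf4, with 0.161 and rank 348, and the other genes of the response lay farther away, down to Atf3 with 0.517 and rank 9133. The level of Kmt5a, for instance, a histone H4 methyltransferase, was 519 normalized CPM in wt, 361 in Stat5a-/- and 303 in Stat5b-/-. For Trib3, which had the widest range between lines, they were Coro6 (0.115), Gabarapl1 (0.134), Pcbp4 (0.138), Ccdc116 (0.143) and Wdr34 (0.154). Coro6 had a low level, 1.23 normalized CPM in wt, 0.138 in Stat5a-/- and 0.165 in Stat5b-/-. At such levels the added 0.5 narrows log2 differences, so its first place is uncertain. Chac1 was the nearest of the 10 to Trib3, with 0.301 and rank 127. Gabarapl1, which serves autophagosome formation, was measured at 54.9 normalized CPM in wt, 19.2 for Stat5a-/- and 21.1 for Stat5b-/-.

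The wider pathway was followed with lists from its input to its targets. Of the 14 genes for eIF2 kinases and eIF2 control, 3 fell in Stat5a-/- and 6 in Stat5b-/-, beside 16.1% and 21.9% of all genes, and the list medians were -0.16 and -0.18. Among the kinases, Eif2ak4, which encodes the amino acid sensor GCN2, fell in Stat5a-/- by 0.35 on the log2 scale (adjusted p = 0.0289) and was at -0.08 in Stat5b-/- (adjusted p = 0.6). The call in Stat5a-/- was lost without any 1 of the wt libraries, Stat5a-/- replicate 1 or Stat5a-/- replicate 2 (-0.34 to -0.38, adjusted p up to 0.0736). It was also lost with the replicate number as a block (-0.35, adjusted p = 0.0601). The heme-regulated Eif2ak1 (0.19 and 0.02), the RNA sensor Eif2ak2 (0.24 and 0.25) and Eif2ak3, which encodes PERK (-0.13 and -0.08), did not pass in either line. With the GC offset, Eif2ak2 passed in both (0.34 and 0.27) and Eif2ak1 in Stat5a-/- (0.18, adjusted p = 0.0429). Ppp1r15a encodes GADD34, the phosphatase subunit through which ATF4 ends the response. It had 41.5 to 53.7 normalized CPM in wt, 34.1 to 46.3 in Stat5a-/- and 17.4 to 20.4 in Stat5b-/-. The Stat5b-/- libraries lay apart from wt and the Stat5a-/- libraries overlapped it. It fell in Stat5b-/- by 1.33 (adjusted p = 6.88e-06), while the value in Stat5a-/- was -0.28 (adjusted p = 0.131; -0.48, adjusted p = 3.69e-04, with the GC offset and -0.44, adjusted p = 0.0279, without Stat5a-/- replicate 3), and the direct comparison of the knockout lines gave -1.04 (adjusted p = 1.11e-04). Subunits of eIF2B, the exchange factor that phosphorylated eIF2 blocks, fell in both lines for Eif2b1 (-0.51 and -0.74) and Eif2b3 (-0.57 and -0.81), and eIF2 subunit alpha itself, Eif2s1, fell in Stat5b-/- (-0.64, adjusted p = 0.00506) and was at -0.37 in Stat5a-/- (adjusted p = 0.081), where it passed in 7 of the 18 other fits. The count of falls in this list for Stat5a-/- was 5 without Stat5b-/- replicate 1, and 7 with the GC offset, where 22.2% of all genes fell.

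Large falls were seen among the dimer partners and cofactors of ATF4. Of the 5 genes on this list, 3 fell in each line, beside 16.1% and 21.9% of all genes, namely Cebpb, Cebpd and Jdp2 in Stat5a-/- and Cebpb, Jdp2 and Nupr1 in Stat5b-/-. Jdp2, a factor of the AP-1 family related to ATF3, had 40.0 to 44.5 normalized CPM in wt, 18.1 to 20.6 in Stat5a-/- and 0.48 to 1.02 in Stat5b-/-. All 3 lines were apart, and Stat5b-/- rested on 7 to 15 reads a library, with a log2 fold change of -1.16 (adjusted p = 1.37e-05) in Stat5a-/- and -5.90 (adjusted p = 1.83e-10) in Stat5b-/-. Nupr1, a small stress cofactor, had a mean of 45.5 ± 1.30 normalized CPM in wt, 40.4 ± 4.89 for Stat5a-/- and 11.3 ± 1.98 for Stat5b-/- (± SD of 3 libraries, as below). It fell in Stat5b-/- by 2.01 and was at -0.17 in Stat5a-/- (adjusted p = 0.343), and the knockout lines differed by -1.84 (adjusted p = 5.9e-07). Cebpb, a partner of both ATF4 and CHOP, fell from 100 to 142 reads a library in wt to between 4 and 13 in the knockout lines, by 3.35 in Stat5a-/- and 3.37 in Stat5b-/-. Cebpd, a related factor, was at 2.01 ± 0.484 normalized CPM in wt and fell in Stat5a-/- by 1.17 (adjusted p = 0.008). In Stat5b-/- it was at -0.69 (adjusted p = 0.0557), and it passed there in 5 of the 18 other fits, among them that without wt replicate 1 (-0.87, adjusted p = 0.0236). Cebpg, another partner of ATF4, was at -0.31 in Stat5a-/- (adjusted p = 0.126) and -0.21 in Stat5b-/- (adjusted p = 0.265), and passed only in Stat5a-/- without Stat5a-/- replicate 2 (-0.45, adjusted p = 0.0484).

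In amino acid supply, the classical field of ATF4, falls outnumbered rises in each line. Of the 32 tested genes of synthesis, transport and tRNA charging together, 18 fell and 2 rose in Stat5a-/- and 28 fell in Stat5b-/-, beside 16.1% and 21.9% of all genes that fell and 19.7% that rose in Stat5a-/-. Of the 11 tested genes of amino acid synthesis, 6 fell and 2 rose in Stat5a-/- and 9 fell in Stat5b-/-, with medians of -0.45 and -0.82. The rises were those of Mthfd2, a mitochondrial folate enzyme (0.33, adjusted p = 0.0137), and Got1, an aspartate aminotransferase (0.37, adjusted p = 0.00689), both named after their values were seen. The call for Mthfd2 was lost without wt replicate 2, Stat5a-/- replicate 1 or Stat5a-/- replicate 2 (adjusted p up to 0.0652), and without the filter on low counts (adjusted p = 0.0572). Gpt2, which makes alanine, went from 128 ± 6.33 normalized CPM in wt to 45.4 ± 1.88 in Stat5a-/- and 27.9 ± 2.26 in Stat5b-/- (log2 fold change -1.50 and -2.20). Cth, which makes cysteine from cystathionine, went from 142 ± 6.65 to 53.4 ± 2.57 and 37.7 ± 3.72 (-1.41 and -1.91). The serine enzymes followed: Psph fell by 0.79 and 1.73, and Psat1 by 1.18 and 1.11. Between the knockout lines, Gpt2 (-0.70), Cth (-0.50) and Psph (-0.94) were lower in Stat5b-/-, with adjusted p of 1.8e-04, 0.00247 and 7.25e-05, and Psat1 did not pass (0.07, adjusted p = 0.647).

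Of the 8 amino acid carriers, 4 fell in Stat5a-/- and 7 in Stat5b-/-, beside 16.1% and 21.9% of all genes, and the medians were -0.43 and -0.65. With the GC offset the count in Stat5a-/- was 7, where 22.2% of all genes fell. Slc7a3, which carries arginine and lysine, was at 76.9 ± 3.46 normalized CPM in wt, 10.8 ± 1.13 in Stat5a-/- and 19.3 ± 2.71 in Stat5b-/-, and was lowest in Stat5a-/-, in the order seen for Chac1 and Ddit3. Its log2 fold change was -2.83 in Stat5a-/- and -2.00 in Stat5b-/-, and the knockout lines differed by 0.84 (adjusted p = 3.91e-04). Slc3a2, the shared heavy chain of the carriers built on Slc7a5 and Slc7a11, fell by 0.55 and 0.91, and the glycine carrier Slc6a9 by 1.20 and 1.58. Slc7a5, the leucine carrier, fell in Stat5b-/- by 0.83 (adjusted p = 4.76e-04) and was at -0.34 in Stat5a-/- (adjusted p = 0.0867), where it passed in 6 of the 18 other fits, among them that with the GC offset (-0.54, adjusted p = 1.06e-04). Thus the heavy chain of the xCT carrier fell in both lines while the transcript of its light chain, Slc7a11, did not pass the test in either.

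Of the 13 genes of tRNA charging, 8 fell in Stat5a-/- and 12 in Stat5b-/-, beside 16.1% and 21.9% of all genes, with medians of -0.31 and -0.50. Mars1 was the 1 gene that did not pass in Stat5b-/-. Nars, which charges the asparagine tRNA and so uses the product of Asns, was at 426 ± 14.5 normalized CPM in wt, 427 ± 22.2 in Stat5a-/- and 213 ± 27.2 in Stat5b-/-, and the knockout lines differed by -1.01 (adjusted p = 1.28e-05). Lars, for leucine, was likewise at -0.09 in Stat5a-/- (adjusted p = 0.599) and fell by 0.79 in Stat5b-/- (adjusted p = 2.27e-04). Xpot, the exporter of tRNA from the nucleus, fell in both lines (-0.60 and -0.97), as did Eprs (-0.67 and -0.74). Among genes with a promoter in the table, the CARE core was found in the start windows of 5 of 9 for tRNA charging, 3 of 11 for amino acid synthesis, 1 of 5 for transport, 2 of 4 for the partners of ATF4, 2 of 9 for the other targets described next, 1 of 13 for the ATF6 and XBP1 arm, 0 of 11 for eIF2 control and 0 of 7 for NRF2, beside 4.51% of all genes.

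**Figure D4:**
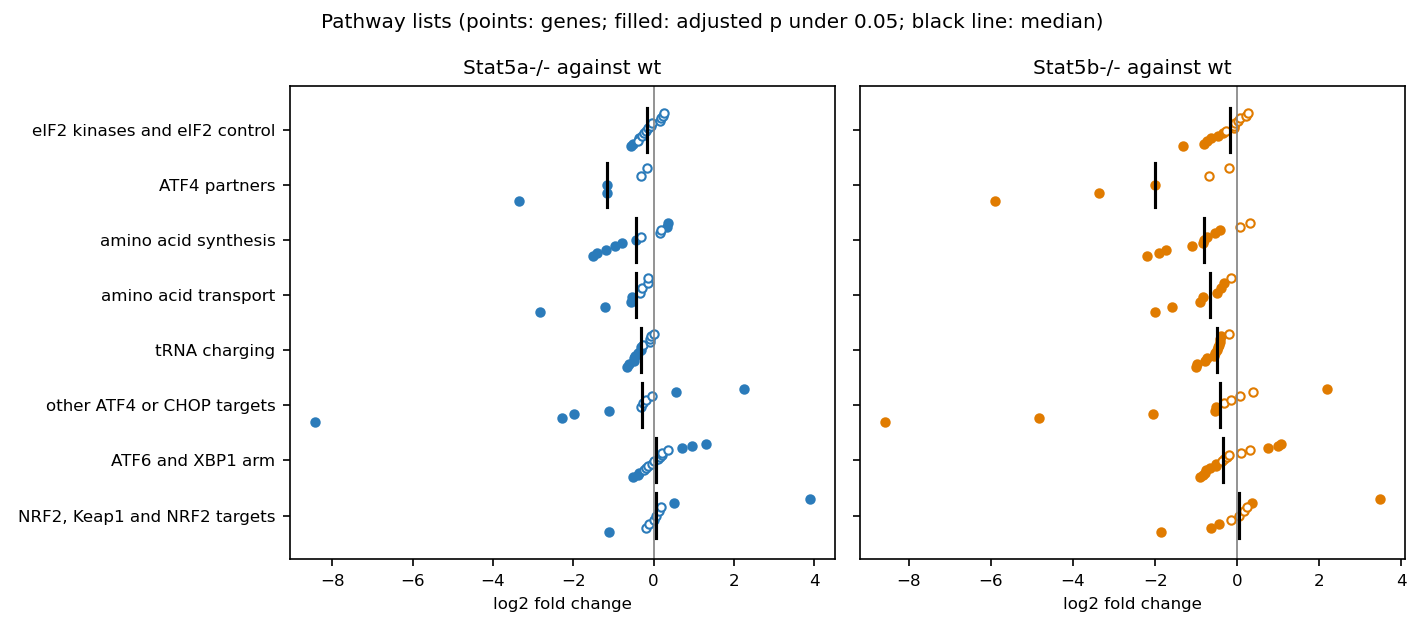
Log2 fold change (horizontal axis) of every tested gene of 8 pathway lists in Stat5a-/- against wt (left) and Stat5b-/- against wt (right); filled points passed an adjusted p under 0.05 and the black line is the median of a list. The medians of amino acid synthesis (-0.45 and -0.82), transport (-0.43 and -0.65) and tRNA charging (-0.31 and -0.50) lie below 0 in both panels, and the point at the far left is Vldlr, whose fitted value rests on at most 2 reads in a knockout library.

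Other targets of ATF4 or CHOP included both falls and rises. Of the 10 tested genes, 4 fell and 2 rose in Stat5a-/-, where 16.1% of all genes fell and 19.7% rose, and 5 fell and 1 rose in Stat5b-/-, where 21.9% fell and 24.1% rose. Vldlr, a lipoprotein receptor, had 452 to 607 reads in the wt libraries and at most 2 in any knockout library. Stc2, a secreted regulator of calcium and phosphate handling, was at 67.4 ± 4.62 normalized CPM in wt, 17.2 ± 0.202 in Stat5a-/- and 2.35 ± 0.347 in Stat5b-/-, so the lines were far apart. The oxidase Ero1l, a CHOP target of the endoplasmic reticulum, fell by 2.28 and 2.06. Pmaip1, which encodes the death protein NOXA, rose by 2.26 and 2.19, from between 6 and 23 reads a library in wt to between 39 and 55 in the knockout lines. Gdf15 and Fgf21, secreted markers of the response, were too low to be tested.

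Neighbouring branches of the stress response were followed as well. Of the 16 genes of the ATF6 and XBP1 arm, which builds folding capacity in the endoplasmic reticulum, 3 rose and 3 fell in Stat5a-/- (median 0.06), where 19.7% of all genes rose and 16.1% fell, and 3 rose and 8 fell in Stat5b-/- (median -0.35), where 24.1% rose and 21.9% fell. Xbp1, a factor of this arm and of B-cell maturation, was at 110 ± 7.39 normalized CPM in wt, 271 ± 30.3 in Stat5a-/- and 184 ± 17.9 in Stat5b-/-. It rose by 1.30 and 0.75. The other genes of the list that rose were the XBP1 targets Edem1 (0.95 and 0.98) and Dnajb9 (0.70 and 1.07), beside the 8 of 16 that fell in Stat5b-/-. The Dnajb9 call in Stat5a-/- was lost without Stat5a-/- replicate 1 (0.56, adjusted p = 0.0648). Hspa5, the chaperone BiP, fell in Stat5b-/- by 0.90 (adjusted p = 6.69e-05), was at -0.23 in Stat5a-/- (adjusted p = 0.172; 0.0381 without Stat5b-/- replicate 1) and was lower in Stat5b-/- than in Stat5a-/- (-0.67, adjusted p = 0.00115). The last list holds Nfe2l2, which encodes NRF2, the factor of the oxidative stress response, its inhibitor Keap1 and NRF2 targets. Of its 9 tested genes, 2 rose and 1 fell in Stat5a-/-, and 2 rose and 3 fell in Stat5b-/-, beside the same shares of all genes, with medians of 0.07 and 0.04. Hmox1, heme oxygenase, fell by 1.11 and 1.86, whereas Nqo1 rose by 3.89 and 3.47 from between 2 and 11 reads a library in wt. Nfe2l2 itself was the other gene that rose (0.50 and 0.37). G6pdx, which supplies NADPH, fell in Stat5b-/- by 0.64 (adjusted p = 1.25e-04) and was at -0.19 in Stat5a-/- (adjusted p = 0.138; -0.29, adjusted p = 0.00327, with the GC offset).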

How the data were processed

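mRNA libraries (Lexogen SENSE kit, 50 bp single-end reads) of 3 cell lines were used. The authors trimmed the reads with Trimmomatic, mapped them with STAR to GRCm38, and deposited raw counts per gene from featureCounts 1.5.1 on GENCODE M13 union gene models, without normalization. The file header names no strand setting and no option to keep reads of several places or several genes, so near-identical copies and overlapping genes are uncertain. Symbols came from GENCODE M21 (50376 of 50686 genes). Samples were grouped by title.

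All 9 libraries entered 1 model in edgeR 4.0.16 (R 4.3.3) with TMM scaling, filterByExpr, glmQLFit and glmQLFTest, and p-values were adjusted by Benjamini-Hochberg over the 13852 genes tested. A standard error is the size of the log2 fold change divided by the square root of its F statistic. Technical replicates varied beyond sampling noise (chi-square per degree of freedom 4.81 to 29.7), so each counted as 1 library. The authors used DESeq2, which was run here (1.42.0) as an alternative, beside other scalings, filters, single left-out libraries and a replicate block. An offset for GC content (loess, span 0.5) was added after the data were seen. The GC content of a gene was that of its longest GENCODE M21 transcript, not of the counted gene model. The steps were run on simulated counts with changed genes in the Stat5b-/- group only and no GC trend. Such counts differ from these data, and that run cannot judge the GC offset. The 10 genes and all lists were chosen with earlier results of these data known. Of each list, up to 4 genes past the threshold with the largest change against wt were named, plus the eIF2 kinases, Ppp1r15a, Cebpb, Cebpg, Hspa5 and Xbp1. Promoter sequences came from RefSeq. The reads carry no molecular identifiers and so are not independent molecules. A few marker genes are not reported here and were left out of the marker sums.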

Additional observations from a re-analysis of the deposited data

How the results depend on the processing

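Over 18 other fits and 10 genes in 3 comparisons, 476 of 540 values kept direction and side of the threshold, 31 lost the call, 27 gained it and 6 changed sign, all 6 without passing. The genes called against wt stayed called in all 18 fits, except Sesn2 in Stat5b-/- (16 of 18). With 1 library left out in turn, the values that changed sign ranged from -0.18 (without Stat5a-/- replicate 3) to 0.52 for Slc7a11 in Stat5a-/- and from -0.14 to 0.071 (without wt replicate 1; 0.039 without Stat5b-/- replicate 3) for Ddit4 in Stat5b-/-. Between the knockout lines they ranged from -0.0023 (without Stat5b-/- replicate 1) to 0.38 for Sesn2 and from -0.31 to 0.39 (without Stat5a-/- replicate 3; 0.086 without Stat5b-/- replicate 3) for Slc7a11. The cause was not tested. With a fold change above 2 besides the adjusted p, the counts were 0 higher and 2 lower in Stat5a-/-, 2 lower in Stat5b-/-, and 0 in either direction between the knockout lines.

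The direct comparison (2 higher, 1 lower) was the least stable. Leaving out 1 library gave 0 to 2 higher and 0 to 2 lower. There were 0 higher and 0 lower with only the compared genotypes in the fit, 1 higher without the filter, 2 lower with DESeq2, 4 higher and 2 lower with the GC offset, and 4 higher with that offset and the replicate block. The replicate block alone gave 0 higher and 0 lower there, 1 higher and 6 lower in Stat5a-/- against wt, and 7 lower in Stat5b-/- against wt. The replicate numbers did not pair the samples: the deviations of libraries with the same number had a mean correlation of -0.088 (9 pairs, from -0.445 to 0.216), against 0.044 for different numbers (18 pairs). Of the list counts, 748 of 768 stayed within 1.5 times the main count under the other scalings, filters, samples and blocks, and 73 of 96 with the GC offset. No scaling moved the median of all genes by 0.1 or more. Slc7a11 and Atf3 rest on the fewest reads, and no alternative replaces more than 1 line of each genotype.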
